A study of Mus with 2 samples.

Results

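The D-type cyclins, their kinase partners Cdk4 and Cdk6, and the retinoblastoma (Rb) family form the switch that lets a cell leave G1 and copy its DNA. Ccnd1, Ccnd2 and Ccnd3 encode cyclins D1, D2 and D3, which bind and activate Cdk4 or Cdk6. The active kinases phosphorylate Rb1, Rbl1 (p107) and Rbl2 (p130), and the phosphorylated proteins release E2F transcription factors that switch on genes of DNA replication. Rbl2 is the family member known for holding E2F targets silent in resting cells, as part of the DREAM complex, whereas Rbl1 is itself an E2F target and is known from cycling cells. In hematopoiesis, cyclin D2 and D3 are known from stem and progenitor cells and cyclin D3 from erythroid precursors, and Cdk6 is known to time the exit of hematopoietic stem cells (HSCs) from quiescence. These 8 genes were taken by symbol from the 27998 genes of the count matrices, and each symbol stood on 1 row.

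HSCs (LSK, FLT3-, CD150+, CD48-) from the marrow of tibias and fibulas were profiled on the 10x Genomics Chromium, in which a barcode tells the cells apart and a unique molecular identifier (UMI) tells the RNA molecules apart. The Id2+/+ group and the Id2-deleted group, both on an Mx1-Cre background, had 1 library each, made from 1000 sorted cells pooled from 5 mice aged 8 to 12 weeks. Id2 is an inhibitor of DNA binding that pairs with E proteins, and the question was what its loss does to the transcriptome of HSCs 2 weeks after the deletion. Both groups carried Mx1-Cre, a recombinase driven by an interferon-inducible promoter and switched on with poly(I:C), which acts in many blood cells and other tissues besides HSCs. For the Id2-deleted sample, 1 clause of the label text gives Id2+/+ bones as the source, whereas its title and genotype field give the deletion and set its group here.

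The libraries held 8612217 (Id2+/+) and 17140713 (Id2 deleted) UMIs. Called cells under the mitochondrial limit numbered 333 and 625, of which 262 and 416 were kept as stem and progenitor cells, called retained cells below, with a median of 7081 and 9663 UMIs. The clusters set aside were named from markers. Erythroid-like cells (35 and 156) had Klf1 at 604 and 654 CPM (UMIs scaled to a total of 1000000 in the same cells), against 45.0 and 36.1 CPM in the retained cells, and a median of 37549 and 40038.5 UMIs. Neutrophil-like cells (27 and 40) had Elane at 21550 and 24639 CPM. The HSC factor Hlf stood at 136 and 86.6 CPM in the retained cells. RNA free of cells made up an estimated 10.5% and 5.41% of the UMIs of the retained cells. In the Id2+/+ library Id2 had 22 UMIs in the retained cells, 29 in the neutrophil-like cells and 33 in the empty droplets, and in the Id2-deleted library it had 0 in each. The deleted segment runs from before exon 1 to between exons 2 and 3, so the 3′ end that is read lies outside it, and these counts are of the RNA and not of the deletion. Fos, an early-response gene that also marks cell handling, stood at 211 CPM in the retained Id2+/+ cells and 35.2 CPM in the retained Id2-deleted cells (146 of 262 and 92 of 416 cells had a Fos UMI), and handling, depth and genotype cannot be told apart. The libraries shared 1 cell barcode, in none of the retained cells. With 1 library per group no test was run. In pooled cells, fewer cells with an RNA and less RNA per cell cannot be told apart from a summed level. Each interval is at 95% and covers counting error only.

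The 8 genes lie on 8 chromosomes. On GRCm38, the build that mm10 names, Ccnd1 (ENSMUSG00000070348) lies at chr7:144929931-144939831, Ccnd2 (ENSMUSG00000000184) at chr6:127125162-127152188 and Ccnd3 (ENSMUSG00000034165) at chr17:47505051-47599689. Cdk4 (ENSMUSG00000006728) lies at chr10:127063535-127067288 and Cdk6 (ENSMUSG00000040274) at chr5:3341004-3531008. Rb1 (ENSMUSG00000022105) lies at chr14:73192858-73325951, Rbl1 (ENSMUSG00000027641) at chr2:157145893-157204534 and Rbl2 (ENSMUSG00000031666) at chr8:91070057-91123844. In the RefSeq annotation Rbl2 overlaps Aktip by 12064 bases, Ccnd3 overlaps Bysl by 359 bases, Cdk4 meets Tspan31 by 2 bases and Lpar6 lies within Rb1. Whether reads were counted by strand is not given in the sources used here, so reads of such pairs may be split between the genes. A library reads the 3′ end of each RNA, and the levels of different genes also depend on that end, so levels are compared below between cells and not between genes.

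Ccnd1 and Ccnd2 were high in the retained cells and low in the erythroid-like cells, whereas Ccnd3 was higher in the erythroid-like cells. In the Id2+/+ library Ccnd2 stood at 376 CPM (350 to 403) in the retained cells and 36.4 CPM (26.8 to 48.3) in the erythroid-like cells, 10.3-fold lower (7.72 to 14.1). In the Id2-deleted library it stood at 404 CPM (386 to 423) and 24.9 CPM (21.1 to 29.1), 16.2-fold lower (13.8 to 19.2). Ccnd1 stood at 36.6 CPM (28.9 to 45.6) in the retained Id2+/+ cells and at 3.03 CPM, from 4 UMIs, in the erythroid-like cells, 12.1-fold lower (4.52 to 45.3). In the Id2-deleted library Ccnd1 stood at 45.0 CPM (39.2 to 51.5) and at 4.75 CPM, from 30 UMIs of which 7 came from a single cell, 9.47-fold lower (6.44 to 14.4). Both erythroid-like levels of Ccnd1, and both of Ccnd2, lay below the level in the empty droplets of the same library, which was 13.0 and 10.9 CPM for Ccnd1 and 140 and 80.3 CPM for Ccnd2.

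Ccnd3 stood at 225 CPM (206 to 247) in the retained and 388 CPM (355 to 423) in the erythroid-like cells when Id2 was intact, 1.72 times as much (1.52 to 1.95). In the Id2-deleted library it stood at 212 CPM (199 to 226) and 412 CPM (396 to 428), 1.94 times as much (1.81 to 2.09). The empty droplets held Ccnd3 at 482 CPM (461 to 504) and 402 CPM (382 to 423), above the retained cells of both libraries, above the erythroid-like Id2+/+ cells and, in the Id2-deleted library, with an interval that overlaps that of the erythroid-like cells. The free RNA of the erythroid-like cells was not estimated, since the estimate rests on haemoglobin, which these cells make, and its part in their Ccnd3 was not tested. With free RNA subtracted from the retained cells, the genes past the 2-fold limit between the kinds were still Ccnd1, Ccnd2 and Rb1.

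The kinases differed less between the kinds. Cdk4 stood at 405 CPM (379 to 433) in the retained and 658 CPM (615 to 703) in the erythroid-like Id2+/+ cells, and with Id2 deleted at 488 CPM (468 to 508) and 677 CPM (657 to 698), ratios of 1.62 (1.48 to 1.79) and 1.39 (1.32 to 1.46). Cdk6 went the other way. It stood at 130 CPM (115 to 147) in retained and 84.2 CPM (69.2 to 101) in erythroid-like Id2+/+ cells. With Id2 deleted it stood at 131 CPM (121 to 142) and 88.3 CPM (81.1 to 95.9), giving ratios of 0.646 (0.514 to 0.808) and 0.675 (0.600 to 0.758). Neither kinase was past the 2-fold limit. Cells were also brought to equal depth (5800 UMIs) by 1 random draw of UMIs. In that draw the Cdk6 ratio was 0.360 (0.161 to 0.703) in the Id2+/+ library, on 9 erythroid-like UMIs and past the limit. It was 0.943 (0.742 to 1.19) in the Id2-deleted library, where the interval includes 1. Every equal-depth ratio, here and below, rests on this draw, and its interval does not cover the draw. The shares of cells with a Cdk6 UMI expected at that depth were 38.0% of erythroid-like and 48.2% of retained Id2+/+ cells. With Id2 deleted they were 37.8% and 42.9%.

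Within the Rb family, Rb1 was higher in the erythroid-like cells. Rb1, the pocket protein best known as a tumor suppressor and needed for terminal red cell maturation, stood at 5.16 CPM (2.57 to 9.23; 11 UMIs) in the retained and 27.3 CPM (19.1 to 37.8; 36 UMIs) in the erythroid-like Id2+/+ cells, a ratio of 5.29 (2.64 to 11.5). In the Id2-deleted library it stood at 6.83 CPM (4.67 to 9.64; 32 UMIs) and 21.2 CPM (17.8 to 25.1; 134 UMIs), a ratio of 3.11 (2.10 to 4.73). Rbl1 was also higher in the erythroid-like cells, with ratios of 1.66 (1.02 to 2.73) and 1.51 (1.19 to 1.93). Rbl2 had ratios of 0.481 (0.221 to 0.963) and 0.687 (0.427 to 1.10), and the second interval includes 1. At equal depth they were 0.922 (0.233 to 2.67) and 0.320 (0.0618 to 1.05), on 4 and 3 erythroid-like UMIs, and both intervals include 1. All 8 genes reached the minimum of 20 UMIs. Of these, 1 (Rb1) was at least 2-fold higher in the erythroid-like cells of both libraries, where 7.22% of the 9209 genes tested were, and 2 (Ccnd1 and Ccnd2) were at least 2-fold lower in both, where 24.3% were. At equal depth Rb1 had 1 and 5 UMIs in the erythroid-like and retained Id2+/+ cells, too few to be tested, and 24 and 20 UMIs in the Id2-deleted cells, a ratio of 3.20 (1.69 to 6.11). The share of cells with an Rb1 UMI expected at that depth was 15.5% against 2.71% in Id2+/+ and 12.4% against 3.49% in Id2-deleted cells. Free RNA alone would give an Rb1 UMI in 0.472% and 0.220% of the retained cells. No such share was estimated for the erythroid-like cells.

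The neutrophil-like cells had another pattern. Ccnd1 had 0 UMIs in the 27 Id2+/+ cells, which allows up to 6.50 CPM at 3 counts, and 3 UMIs in the 40 Id2-deleted cells. Ccnd2 stood at 132 CPM (101 to 170) and 82.6 CPM (63.0 to 106), between the erythroid-like and the retained cells. Ccnd3, at 165 CPM (130 to 206) and 121 CPM (97.2 to 149), was below the retained and the erythroid-like cells. Cdk4 stood at 331 CPM (281 to 388) and 333 CPM (292 to 378), below the retained cells, and Cdk6 at 130 CPM (99.1 to 167) and 132 CPM (107 to 161), within the intervals of the retained cells. Rb1, Rbl1 and Rbl2 had between 1 and 12 UMIs each. Of their ratios to the retained cells, that of Rbl2 in the Id2+/+ library, on 1 UMI, had an interval without 1 (0.125, 0.00308 to 0.740), and the others included 1. Haemoglobin-rich cells (9 and 13) had at most 6 UMIs of any member in a library.

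**Figure D1:**
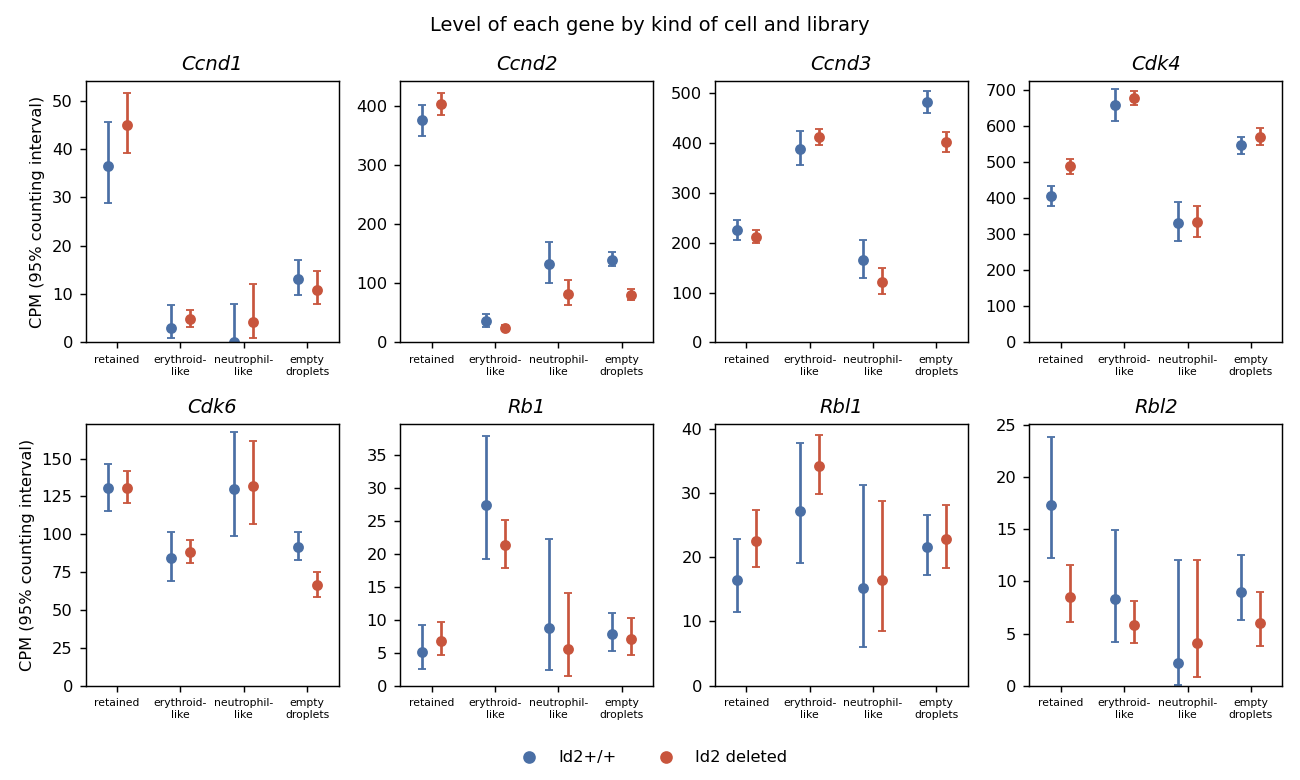
Level of each gene in CPM (linear axes from 0) in the retained, erythroid-like and neutrophil-like cells and in empty droplets, for the Id2+/+ (blue) and the Id2-deleted (red) library; points are summed UMIs and bars 95% counting intervals. Ccnd1 and Ccnd2 are highest in the retained cells, Ccnd3 and Cdk4 are higher in erythroid-like than in retained cells, and Rb1 is highest in erythroid-like cells, in both libraries.

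Between the libraries, no D cyclin and no kinase passed the 1.5-fold limit in the retained cells as a whole. The ratio of Id2 deleted over Id2+/+ was 1.07 (0.989 to 1.17) for Ccnd2, from 1893 and 802 UMIs, and 0.940 (0.842 to 1.05) for Ccnd3, from 993 and 481 UMIs. Ccnd1 had a ratio of 1.23 (0.946 to 1.62), from 211 and 78 UMIs. With total UMIs the intervals of all 3 cyclins include 1. That of Ccnd2 lay above 1 with TMM scaling (1.16, 1.07 to 1.26), with median-of-ratios scaling (1.18, 1.08 to 1.28) and at equal depth (1.18, 1.05 to 1.33), and that of Ccnd1 with both scalings (1.33, 1.02 to 1.74, and 1.35, 1.04 to 1.77). Cdk6 had a ratio of 1.004 (0.870 to 1.16), from 613 and 278 UMIs, and Cdk4 of 1.20 (1.11 to 1.30), from 2285 and 865 UMIs. At equal depth the Cdk4 ratio was 1.08 (0.967 to 1.20). The ratios changed when the retained cells were split into HSC-like cells and the others, the latter a choice made after seeing the data. Of the HSC-like cells, 167 Id2+/+ cells were of cluster 0 and 8 of cluster 4 in the clusters described further on, and all 53 Id2-deleted cells were of cluster 4, so cluster and library cannot be told apart in any HSC-like ratio. In HSC-like cells Ccnd2 had a ratio of 1.31 (1.11 to 1.54) and in the others 1.23 (1.08 to 1.39). For Cdk4 the ratios were 0.903 (0.728 to 1.11) and 1.003 (0.909 to 1.11). Cdk6 lay below 1 in both, at 0.386 (0.209 to 0.663), past the 1.5-fold limit, and at 0.815 (0.685 to 0.974). Ccnd3 had ratios of 1.09 (0.844 to 1.40) and 0.832 (0.721 to 0.961), and Ccnd1 of 1.05 (0.492 to 2.08) and 1.001 (0.721 to 1.42), both under the 1.23 of the retained cells as a whole.

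Rbl2 was the member that stood furthest apart. It had 37 UMIs in the retained Id2+/+ cells, 17.3 CPM (12.2 to 23.9), and 40 UMIs in the more deeply sequenced retained Id2-deleted cells, 8.54 CPM (6.10 to 11.6). These intervals do not overlap, and the ratio was 0.492 (0.307 to 0.792). No cell held more than 2 Rbl2 UMIs. Rbl1 went the other way, with 16.4 CPM (11.4 to 22.8; 35 UMIs) and 22.6 CPM (18.5 to 27.4; 106 UMIs), a ratio of 1.38 (0.933 to 2.08), and Rb1 had a ratio of 1.32 (0.651 to 2.91); both intervals include 1. Of the 8 genes, all tested, 0 were at least 1.5-fold higher in the Id2-deleted library, where 3.76% of 10458 genes were, and 1 (Rbl2) was at least 1.5-fold lower, where 13.3% were. The median log2 ratio of the 8 genes was 0.18, against -0.08 over all genes tested. TMM scaling moved the latter to 0.02 and median-of-ratios scaling to 0.05, and with these scalings the Ccnd3 ratio changed side, to 1.01 and 1.03, as it did with free RNA subtracted (1.03, 0.911 to 1.16) and at equal depth (1.01, 0.862 to 1.19). The lower calls were 77.9% of all calls with total UMIs, 61.9% with TMM and 58.3% with median of ratios.

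The Rbl2 ratio differed between subsets of the retained cells. In the HSC-like clusters Rbl2 had 32 UMIs (27.5 CPM) in 175 Id2+/+ cells and 6 UMIs (14.8 CPM) in 53 Id2-deleted cells, a ratio of 0.540 (0.184 to 1.31). Outside these clusters it had 5 UMIs (5.16 CPM) in 87 Id2+/+ cells and 34 UMIs (7.94 CPM) in 363 Id2-deleted cells, and the ratio turned to 1.54 (0.599 to 5.04). The Id2+/+ library held 32 of its 37 Rbl2 UMIs in HSC-like cells, whereas the Id2-deleted library held 6 of 40. In cells without a Fos UMI, 116 and 324 in number, Rbl2 stood at 12.7 and 8.08 CPM, a ratio of 0.636 (0.316 to 1.36), and in cells with one at 21.0 and 10.3 CPM. Xist without Y-linked RNA was found in 84 Id2+/+ and 231 Id2-deleted cells, and Y-linked RNA without Xist in 93 and 90. Xist stood at 428 and 715 CPM in the retained cells. The libraries thus differed in the balance of female and male cells. This balance and genotype cannot be told apart in ratios over all retained cells. Where Xist alone was found the Rbl2 ratio was 0.435 (0.204 to 0.958), and where Y-linked RNA alone was found it was 0.765 (0.322 to 1.83), short of the limit. Aktip, which overlaps Rbl2, had 51 and 78 UMIs in the retained cells, 23.9 and 16.6 CPM, a ratio of 0.696 (0.483 to 1.01); its part in the Rbl2 counts was not tested. The 9 HSC markers, all detected, summed to 834 and 630 CPM in the retained cells, and Mpo, a neutrophil and progenitor gene, stood at 226 and 70.6 CPM; their part in the Rbl2 ratio was not tested.

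Of the erythroid-like cells, 27 Id2+/+ cells were of a cluster with 0 Id2-deleted cells, and 95 Id2-deleted cells of one with 0 Id2+/+ cells. The other 8 and 61 shared a cluster. Cluster and library cannot be told apart for most of these cells in any erythroid-like ratio between libraries. In the erythroid-like cells the intervals of all members but Ccnd2 include 1. Ccnd3 had a ratio of 1.06 (0.964 to 1.17), Cdk4 of 1.03 (0.956 to 1.11) and Cdk6 of 1.05 (0.854 to 1.30). Ccnd2 was lower in the Id2-deleted cells, at 0.683 (0.492 to 0.965), close to the limit, and in the neutrophil-like cells at 0.625 (0.430 to 0.908), whereas the empty droplets, too, held less Ccnd2 in that library, at 0.573 (0.497 to 0.659); the part of free RNA in these ratios was not tested. Rb1, Rbl1 and Rbl2 had ratios of 0.778 (0.535 to 1.16), 1.25 (0.878 to 1.84) and 0.703 (0.351 to 1.53). Of the 8 genes, all tested, 1 passed the 1.5-fold limit in either direction, where 17.4% of 8790 genes did. This was Ccnd1, at 1.57 (0.552 to 6.12), on 4 and 30 UMIs, and its interval includes 1. In the 1 draw to equal depth Ccnd1 had 0 and 5 UMIs, too few to be tested, and 3 other genes passed. Their ratios were 0.436 (0.195 to 1.04) for Ccnd2 on 10 and 20 UMIs, 2.37 (1.20 to 5.34) for Cdk6 on 9 and 98 UMIs, and 5.23 (0.853 to 215) for Rb1 on 1 and 24 UMIs. The shares of cells expected at that depth, which rest on no single draw, were 38.0% and 37.8% for Cdk6. For Rb1 they were 15.5% and 12.4%, and for Ccnd2 18.4% and 11.99%. No change with depth is read from the draw.

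**Figure D2:**
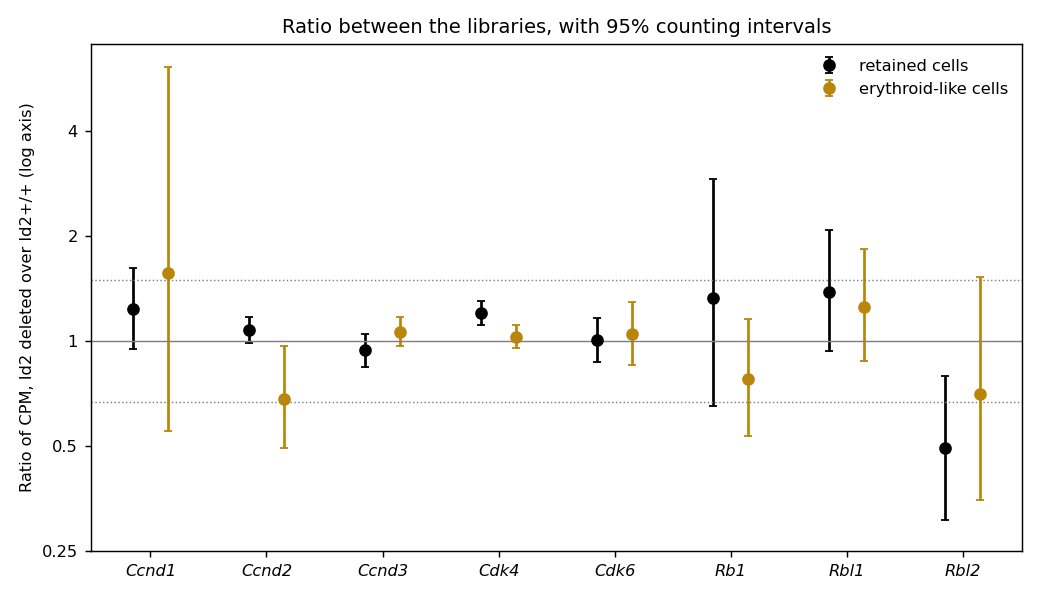
Ratio of the Id2-deleted over the Id2+/+ library for each gene (log axis) in the retained cells (black) and the erythroid-like cells (gold), with 95% counting intervals; the solid line is a ratio of 1 and the dotted lines the 1.5-fold limits. Rbl2 in the retained cells, at 0.492, is past the limit with an interval that excludes 1, whereas Ccnd1 in the erythroid-like cells, at 1.57, has an interval from 0.552 to 6.12.

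Other genes of the pathway were counted from lists in the same retained cells. Of 7 CDK inhibitor genes, which encode the p16 and p21 families that restrain these kinases, 5 had enough UMIs, and 1 was past the limit upward and 0 downward. The former was Cdkn2c (p18, an inhibitor of Cdk4 and Cdk6), at 11.7 and 17.7 CPM, a ratio of 1.51 (0.957 to 2.47) on 25 and 83 UMIs, too low for the rule that names genes and named after its values were seen because the count is small. Cdkn2a had 0 and 1 UMI and Cdkn2b none, Cdkn1b (p27) stood at 21.6 and 20.3 CPM, and Cdkn1c (p57, known from quiescent HSCs and 1 of the 9 HSC markers) at 46.9 and 36.1 CPM, a ratio of 0.769. Of 10 E2F and DP genes, 1 was past the limit upward (E2f8, a repressor E2F, 1.58 with 1.01 to 2.54) and 2 downward (E2f2, 0.497 with 0.201 to 1.24, and Tfdp1, 0.592 with 0.318 to 1.12), with a median log2 ratio of 0.01. Of 7 DREAM and MuvB genes, whose complex includes Rbl1 or Rbl2, 0 were past it upward and 1 downward (Dyrk1a, a kinase that promotes DREAM assembly, 0.611 with 0.386 to 0.976), with a median of -0.19. Of 26 E2F target genes, mostly of DNA replication, 4 were past it upward and 1 downward, with a median of 0.33, against -0.08 over all genes, and 22 had a ratio above 1. Over all 10458 genes tested, 3.76% were past the limit upward, 13.3% downward, and 41.9% had a ratio above 1. Tyms, thymidylate synthase, was the named one, at 87.2 and 136 CPM, a ratio of 1.56 (1.33 to 1.85). Cdc45 and Ccne2 were also among those upward, with ratios of 1.81 (1.23 to 2.73) and 1.59 (1.002 to 2.62), and the 1 downward was Ccne1 (cyclin E1), at 0.649 (0.463 to 0.916). In the erythroid-like cells the median of the E2F targets was 0.05, with 1 past the limit in each direction, where 5.64% of all genes were past it upward and 11.8% downward. These were Cdc45, a helicase component, at 45.5 and 72.1 CPM, and Pcna, the replication clamp, at 450 and 280 CPM, a ratio of 0.621 (0.566 to 0.683). Cluster and library cannot be told apart for most erythroid-like cells, so this holds for these values too. Tfdp2, a dimer partner of E2F, stood there at 44.7 and 71.8 CPM, the 1 of 9 E2F and DP genes past the limit. Of 7 DREAM and MuvB genes 1 was past it upward (Lin37, 1.77 with 1.19 to 2.72) and of 3 CDK inhibitor genes 1 downward (Cdkn1b, 0.627 with 0.336 to 1.24). The genes under 50 CPM were named after their values were seen. The lists were chosen with earlier results known, so their counts are a description.

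UMIs of more than 1 D cyclin were found in most retained cells. To compare cells at equal depth, the share expected when each cell is thinned to 5800 UMIs was computed, leaving out 66 Id2+/+ cells and 0 Id2-deleted cells that were shallower. Ccnd2 and Ccnd3 without Ccnd1 made up the most frequent pattern, with 47.1% (40.0 to 54.4) in the Id2+/+ and 46.0% (41.2 to 51.0) in the Id2-deleted library. Ccnd2 alone was found in 20.5% and 23.4%, Ccnd3 alone in 11.9% and 7.71%, all 3 in 9.18% and 12.1%, and none in 4.64% and 3.26%. Free RNA alone, at its estimated amount, would give a Ccnd3 UMI in 25.4% and 11.8% of retained cells at this depth, a Ccnd2 UMI in 8.17% and 2.49% and a Ccnd1 UMI in 0.790% and 0.342%, and how many of the combinations held such UMIs was not tested. In erythroid-like cells Ccnd3 was the lone D cyclin found in 65.0% (46.8 to 80.5) and 72.4% (64.6 to 79.2) of cells, and Ccnd2 alone in 3.59% and 2.90%. No share from free RNA was estimated for these cells, whose Ccnd3 level was not above that of the empty droplets beyond counting error. How much of these shares came from free RNA was not tested.

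Single genes were found at this depth in the following shares of retained cells. Ccnd2 was found in 80.7% (74.5 to 86.0) of Id2+/+ and 87.0% (83.4 to 90.1) of Id2-deleted cells, against 18.4% and 11.99% of erythroid-like cells, whose Ccnd2 level lay below that of empty droplets. Ccnd1 was found in 15.8% (11.0 to 21.7) and 19.6% (15.9 to 23.7), against 1.42% and 2.27% of erythroid-like cells. Unthinned, the Ccnd2 shares were 87.0% and 95.4% and the Ccnd1 shares 21.8% and 33.4%, the gap of Ccnd1 between the libraries being wider at the unequal median depths of 7081 and 9663 UMIs. Cdk4 was found in 88.4% and 91.8% of cells and Cdk6 in 48.2% (41.0 to 55.4) and 42.9% (38.1 to 47.8), although the Cdk6 levels in CPM were 130 and 131, so no order is read from the Cdk6 shares. Free RNA alone would give a Cdk4 UMI in 28.2% and 16.4% of cells and a Cdk6 UMI in 5.43% and 2.06%. Cdk4 and Cdk6 together were found in 43.9% and 40.3%. Rbl2 was found in 11.1% (7.05 to 16.3) and 5.46% (3.48 to 8.10), against 0.547% and 0.187% from free RNA alone. No Rb family RNA was found in 77.9% and 80.7% of retained cells, which at this depth does not show that the genes are silent.

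**Figure D3:**
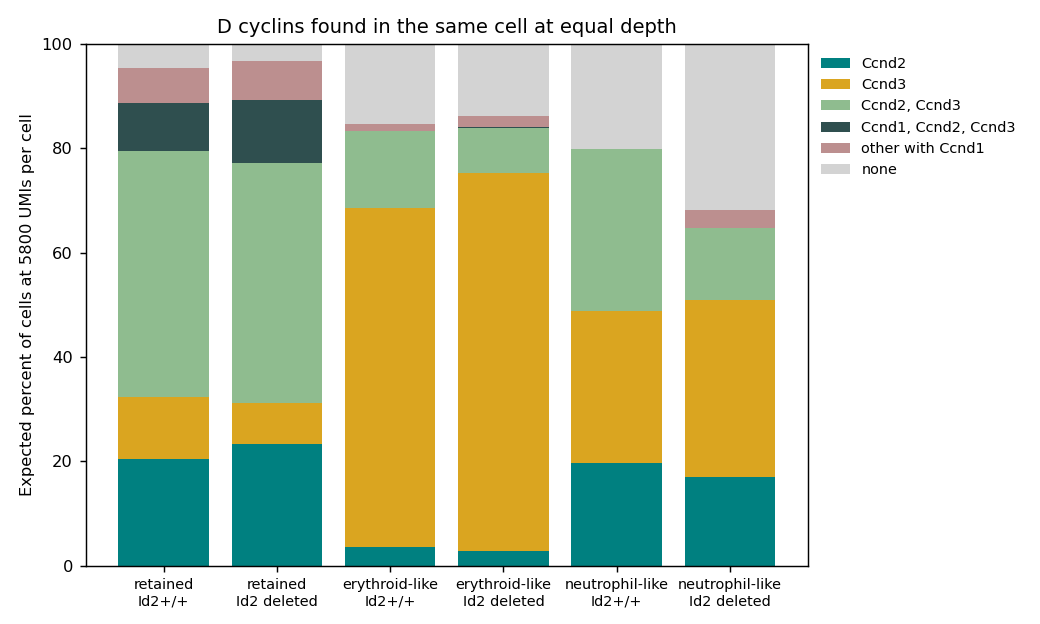
Expected share of cells (percent, axis from 0 to 100) in which each combination of D cyclins is found at 5800 UMIs per cell, for 3 kinds of cells in each library; colors mark the combination and bars stack to all cells. Cells with Ccnd2 and Ccnd3 are the most frequent among retained cells of both libraries (47.1% and 46.0%), and cells with Ccnd3 alone among erythroid-like cells (65.0% and 72.4%).

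The retained cells formed 7 clusters, numbered from 0. The members were left out of the genes used for clustering, but cycle genes were not, so the levels are a description. Clusters 0 and 4 were HSC-like. Cluster 0 held 167 cells, all Id2+/+, led by Fos and Meg3, and cluster 4 held 61 cells, of which 8 were Id2+/+, with Cd74 foremost and with Procr, a surface marker of HSCs, among its leading genes. Cluster 2 was Activated HSC-like (46 Id2-deleted and 15 Id2+/+ cells, led by mitotic genes such as Cenpf), and cluster 3 was Platelet-biased HSC-like (86 Id2-deleted cells, led by Pf4). Clusters 1 (71 Id2+/+ cells, led by Ccl5 and Vpreb3), 5 (145 Id2-deleted cells and 1 Id2+/+ cell, led by Dntt) and 6 (86 Id2-deleted cells, led by Ung and Hells) were unnamed. Clusters 0, 1, 3 and 6 came from 1 library each and cluster 5 nearly so, and cluster and library cannot be told apart for these.

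The HSC-like cluster 4 had the lowest Cdk6 and the highest Ccnd2. Cdk6 stood at 33.3 CPM (18.6 to 54.9; 15 UMIs) there, against 100 CPM (82.5 to 121) in cluster 0, 103 CPM (86.0 to 122) in cluster 5 and 140 to 172 CPM in the other 4 clusters. Ccnd2 stood at 559 CPM (492 to 632) in cluster 4, against 271 CPM (238 to 306) in cluster 2, the lowest, and 351 to 437 CPM in the other clusters. Cdk4 was lowest in the 2 HSC-like clusters, at 284 CPM (237 to 338) in cluster 4 and 327 CPM (295 to 363) in cluster 0, and highest in cluster 6, at 618 CPM (573 to 666). Cluster 6, led by replication genes, also had the highest Rbl1, at 32.0 CPM (22.4 to 44.3), against 11.6 CPM (6.19 to 19.9) in cluster 0. Ccnd1 was highest in cluster 3, the Platelet-biased HSC-like cells, at 63.7 CPM (49.9 to 80.1). Its intervals in cluster 1, at 54.3 CPM (39.3 to 73.1), and cluster 6, at 55.1 CPM (42.3 to 70.7), overlap that of cluster 3. Ccnd1 lay between 26.8 CPM (17.3 to 39.5) and 32.7 CPM (23.5 to 44.4) in clusters 0, 2, 4 and 5. Ccnd3 was the most even of the cyclins, between 164 CPM (143 to 189) in cluster 5 and 260 CPM (226 to 298) in cluster 1. Rbl2 was highest in cluster 0, at 28.6 CPM (19.6 to 40.4), followed by cluster 4 at 13.3 CPM (4.88 to 29.0), and lay between 3.79 and 9.58 CPM in the other clusters. Among HSC-like cells alone, 175 Id2+/+ and 53 Id2-deleted, the Cdk6 ratio between libraries of 0.386 rested on 112 and 15 UMIs. The 8 Id2+/+ cells of cluster 4 had 0 Cdk6 UMIs.

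**Figure D4:**
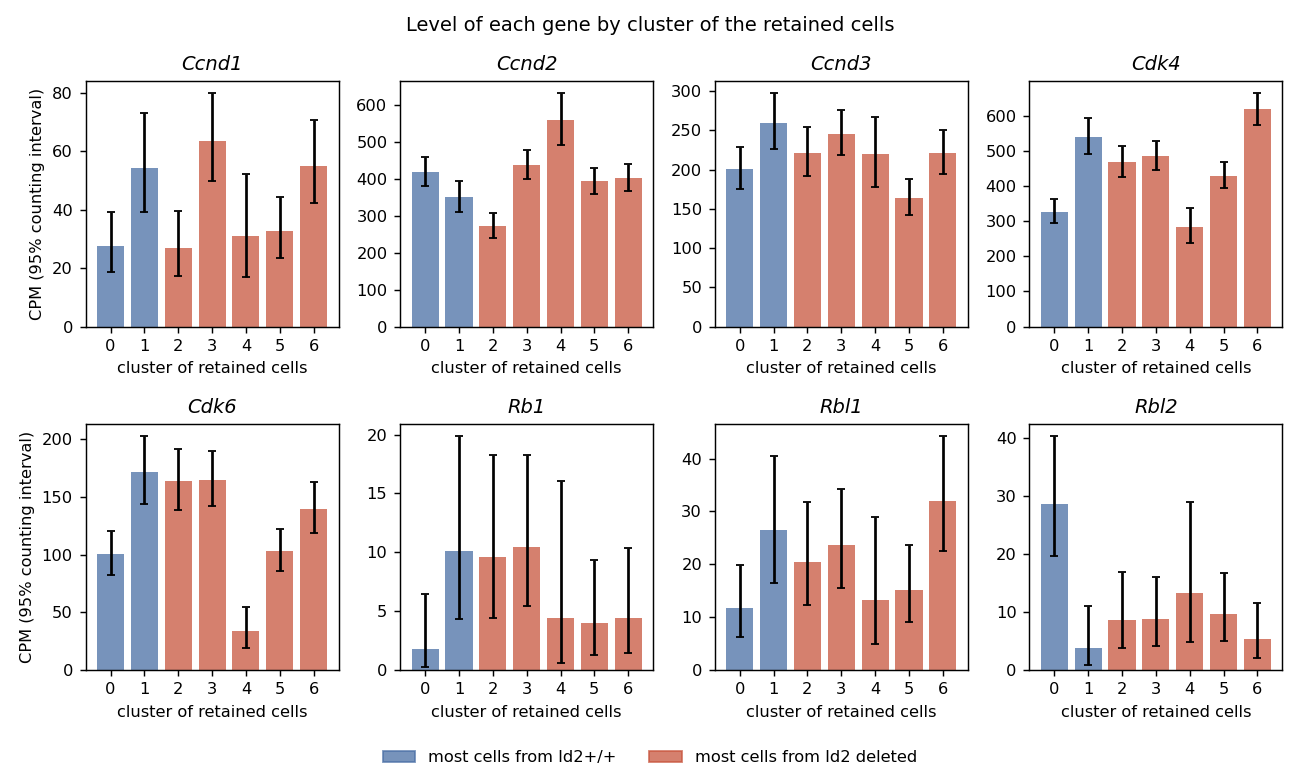
Level of each gene in CPM (bars from 0, with 95% counting intervals) in the 7 clusters of retained cells, colored by the library that gave most cells of the cluster. Cdk6 is lowest in cluster 4 (33.3 CPM), where Ccnd2 is highest (559 CPM), Rbl2 is highest in cluster 0 (28.6 CPM) and Cdk4 and Rbl1 are highest in cluster 6.

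The members were also followed along the cell cycle within each library. The retained cells of at least 5800 UMIs were divided by their summed UMIs of S and G2/M genes, none of them a member, into 3 tertiles over both libraries, from lowest to highest (71, 72 and 53 Id2+/+ cells, 146, 120 and 150 Id2-deleted cells). A tertile is a range of this score and not a cell type, and 62 and 16 cells lay within 1 UMI of the limits. Depth rose with the score, from a median of 7006 to 11703 UMIs in Id2+/+ and from 7792.5 to 13463.5 UMIs in Id2-deleted cells, and its part in the ratios was not tested. Cdk6 went from 96.5 CPM (71.4 to 128) in the lowest to 160 CPM (132 to 194) in the highest tertile of Id2+/+ cells, a ratio of 1.66 (1.18 to 2.38), and from 72.4 CPM (58.0 to 89.3) to 158 CPM (142 to 175) in Id2-deleted cells, a ratio of 2.18 (1.72 to 2.79). Cdk4 went from 295 to 549 CPM, a ratio of 1.86 (1.53 to 2.26), and from 374 to 565 CPM, a ratio of 1.51 (1.35 to 1.68). Rbl1 went from 11.8 CPM (6 UMIs) to 25.2 CPM (17 UMIs), a ratio of 2.14 (0.804 to 6.62), and from 9.98 to 25.8 CPM, a ratio of 2.59 (1.38 to 5.30).

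The D cyclins did not share a direction. Ccnd2 went down, from 376 CPM (325 to 433) to 278 CPM (239 to 320) in Id2+/+ cells and from 458 CPM (421 to 498) to 369 CPM (345 to 395) in Id2-deleted cells, ratios of 0.738 (0.600 to 0.908) and 0.806 (0.723 to 0.899). Ccnd3 went up, with ratios of 1.27 (0.983 to 1.64) and 1.33 (1.13 to 1.56), and Ccnd1 with ratios of 2.34 (1.12 to 5.34), on 10 and 31 UMIs, and 1.37 (0.969 to 1.98). Rbl2 had 15 UMIs (29.5 CPM) in the lowest and 3 UMIs (4.45 CPM) in the highest tertile of Id2+/+ cells, a ratio of 0.151 (0.0280 to 0.533), and 13 UMIs (10.8 CPM) and 14 UMIs (6.24 CPM) in Id2-deleted cells, 0.577 (0.251 to 1.33). Rb1 had 1 and 3 UMIs, and 3 and 15. With the minimum of 20 UMIs per library 6 of the 8 genes were tested, without Rb1 and Rbl2. Of these 3 (Cdk4, Cdk6 and Rbl1) were at least 1.5-fold higher in the highest tertile of both libraries, where 9.71% of 6560 genes were, and 0 were lower, where 9.28% were. Cdk4 lay at the limit in the Id2-deleted library, and when tied cells were ranked in file order, a choice made after seeing the data, 2 genes (Cdk6 and Rbl1) passed. By the G2/M genes alone 0 passed, and by the S genes alone Ccnd1, Cdk4 and Rbl1 did. With the cells split at the median of the score in place of tertiles, Rbl1 passed upward (2.29 and 2.45) and Rbl2, which then had enough UMIs, downward, at 0.239 (0.0797 to 0.605) and 0.654 (0.335 to 1.29). Each kinase fell short in 1 library, with ratios of 1.59 and 1.42 for Cdk4 and of 1.47 and 1.76 for Cdk6.

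The summed UMIs of the 9 HSC markers, such as Hlf, Mecom and Procr, were used in the same way. This score is shallow, with limits at 3 and 5 UMIs, and 251 and 188 cells lay within 1 UMI of them. Cells of the highest tertile were shallower than those of the lowest, with a median of 6924 against 9589 UMIs (Id2+/+) and 7848 against 11505 UMIs (Id2 deleted), and the part of depth was not tested. Cdk6 was lower in the highest tertile, at 84.7 CPM (61.6 to 114) against 173 CPM (146 to 204) in Id2+/+ cells and at 69.8 CPM (54.8 to 87.6) against 148 CPM (134 to 163) in Id2-deleted cells, 2.04-fold (1.45 to 2.93) and 2.13-fold (1.66 to 2.76) lower. Ccnd1 was 2.77-fold (1.27 to 6.90) and 1.56-fold (1.07 to 2.33) lower. Rbl2 was higher, at 30.8 CPM (16 UMIs) against 7.12 CPM (6 UMIs) and at 14.2 CPM (15 UMIs) against 6.48 CPM (18 UMIs), ratios of 4.33 (1.61 to 13.5) and 2.18 (1.02 to 4.58). Of 7 genes tested, without Rb1, 1 (Rbl2) was at least 1.5-fold higher in the highest tertile of both libraries, where 6.30% of 7031 genes were, and 2 (Ccnd1 and Cdk6) were lower, where 4.82% were. Between the libraries within the highest tertile, a choice made after seeing the data, Rbl2 had a ratio of 0.459 (0.211 to 0.992), and within the lowest tertile 0.911 (0.346 to 2.80).

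**Figure D5:**
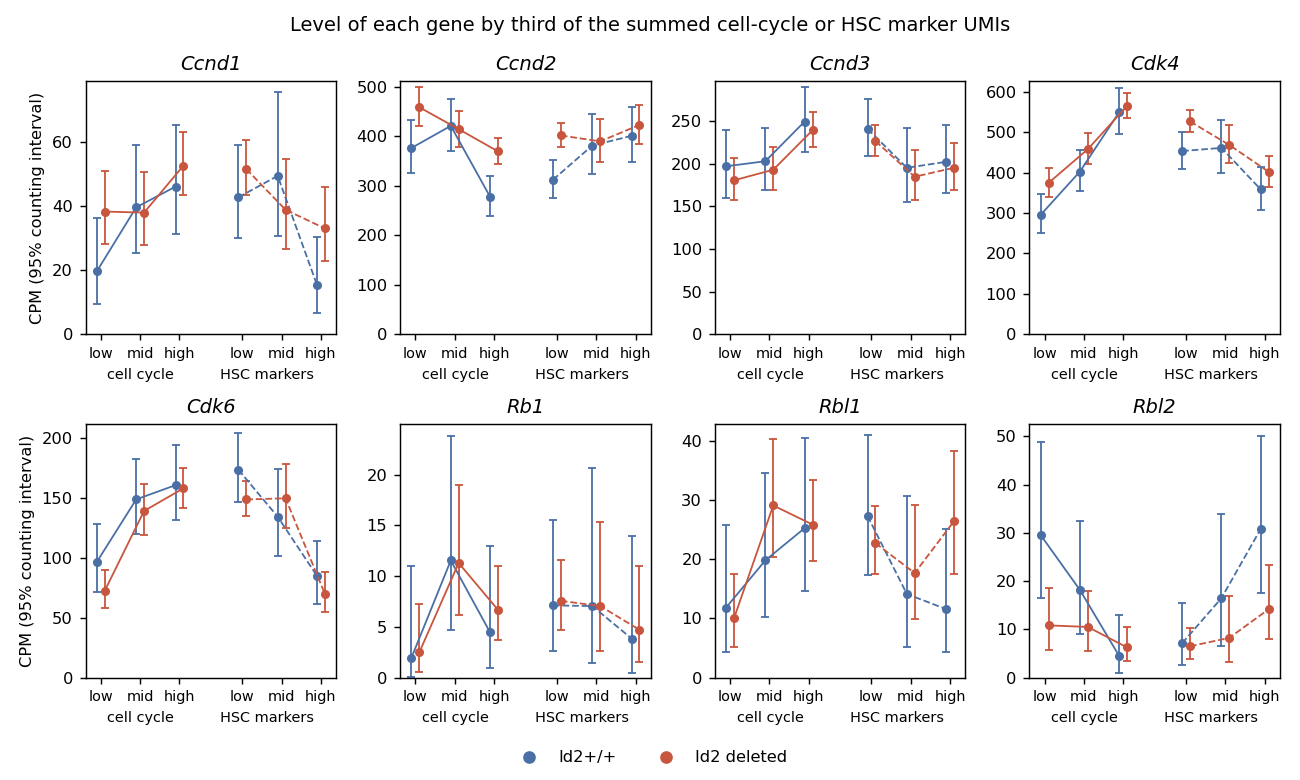
Level of each gene in CPM (linear axes from 0, with 95% counting intervals) in the lowest, middle and highest tertile of retained cells by summed cell-cycle UMIs (solid lines) and by summed HSC marker UMIs (dashed lines), in the Id2+/+ (blue) and Id2-deleted (red) library. Cdk6 is higher in the highest cell-cycle tertile and lower in the highest HSC marker tertile of both libraries, and Rbl2 is higher in the highest HSC marker tertile of both.

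The genes whose levels were most like each member over the 8 combinations of 4 kinds of cells and 2 libraries were taken among 4108 genes of at least 50 CPM. These points share cells and depth, so Pearson's r is a description. It was taken on log2(CPM + 10), and with 1 added in place of 10 the 3 genes were the same for Ccnd1, 2 of them for Cdk6, 0 for Ccnd3 and 1 for each other member. For Ccnd1 they were Hacd4, Mmrn1 and Sdpr (r of 0.984, 0.979 and 0.976), and for Ccnd2 Ankrd10, Tap2 and Ninj1 (0.989, 0.988 and 0.987). For Ccnd3 they were Mtfp1, Klhdc2 and Bysl (0.996, 0.996 and 0.994), Bysl being the gene that overlaps Ccnd3 at its end. For Cdk4 they were Hspa4, Ncaph2 and Cox20 (all 0.999), and for Cdk6 Chic2, Ly6e and Ncor1 (0.995, 0.994 and 0.994). For Rb1 they were Ccnf, Tango2 and Tmem14c (0.994, 0.988 and 0.986) and for Rbl1 Mrpl16, Ube2t and Pradc1 (0.996, 0.995 and 0.995). Irf2 and Tbc1d17 were among the genes most like Rbl2 (0.962 and 0.958).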

How the data were processed

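The authors deposited 1 matrix of UMI counts for each of 2 libraries, over all barcodes, made with Cell Ranger 2.2.0 and mm10 as named in the submitters' processing notes, with no normalization and no call of cells. A barcode was called a cell at 10% of the UMI count of the 99th percentile of the 1000 deepest barcodes, and cells had to have under 10% mitochondrial UMIs. Cells were clustered with scanpy 1.11.5 (2000 variable genes without the members, 20 components, 15 neighbours, Leiden resolution 1, and 0.8 for the retained cells). Clusters with at least 4 markers of another cell type were set aside. Doublets were not removed. Scrublet, run as an alternative, marked 2 and 1 cells.

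Sums of UMIs per kind and library were scaled to CPM, with exact Poisson intervals. Ratios carry exact conditional and shares Clopper-Pearson intervals, the latter taken at the expected number of cells where cells were thinned. Genes with at least 20 UMIs over the groups compared counted as tested, and a fold limit of 1.5 (2 between kinds) as a call. List medians had 0.5 UMI added. Likeness used log2(CPM + 10). The interval code was tested on simulated data. Positions and overlaps came from RefSeq (GRCm38.p6). The members, the lists and the tests were chosen with earlier results of these data known. All members were named, and of each list the genes past the limit with at least 50 CPM in either library. Alternatives changed the call of cells, filters, clustering, scaling (edgeR 4.0.16 TMM, DESeq2 1.42.0 size factors), free RNA, depth and subsets of cells. No protein, promoter or transcript sequence was used here. Some genes of the lists and of the likeness ranking are not reported here.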

Additional observations from a re-analysis of the deposited data

How the results depend on the processing

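No replicate could be left out. No paired analysis was possible because there was a single library per genotype. Between the libraries in retained cells, 1 member was past the limit in the values reported. The number was 3 with each cell counted alike (Rb1, Rbl1 and Rbl2) and in the highest tertile of HSC marker UMIs (Ccnd1, Rbl1 and Rbl2), 2 with median-of-ratios scaling, at equal depth, without the cell with most UMIs of the member and in HSC-like cells only, and 0 with a minimum of 100 UMIs, where Y-linked RNA alone was found and in the lowest tertile of HSC marker UMIs. The Rbl2 ratio lay between 0.435 and 0.911 except outside the HSC-like clusters, where it turned to 1.54, on 5 UMIs in the Id2+/+ library. Settings that left the retained cells and their counts as they were, such as the minimum of UMIs, could not move it. In erythroid-like cells the number moved from 1 to 2 with each cell counted alike and to 0 with a minimum of 100 UMIs. In the 1 draw to equal depth it was 3 (Ccnd2, Cdk6 and Rb1). Between the kinds it moved from 3 to 1 with a minimum of 100 UMIs (Ccnd2), and Ccnd3 joined with both scalings. By cell-cycle tertile it moved from 3 to 0 with the G2/M list alone, and was 2 with a split at the median (Rbl1 upward and Rbl2 downward, without the kinases). The cause of these changes was not tested, except that a higher minimum leaves fewer genes tested. Of the other members, Ccnd2 ranged from 0.782 with all called cells kept to 1.31 in HSC-like cells, and Cdk6 from 0.386 in HSC-like cells to 1.10. Rb1 ranged from 0.589 where Y-linked RNA alone was found to 2.88 in HSC-like cells, Rbl1 from 0.832 to 2.29 in the lowest and highest tertiles of HSC markers, Ccnd1 from 1.001 outside the HSC-like clusters to 2.14 in that highest tertile, Cdk4 from 0.903 to 1.32 and Ccnd3 from 0.832 to 1.16. Rb1, Rbl1, Rbl2 and the erythroid-like Ccnd1 had too few UMIs for differences under about the fold limit to be seen at this depth. The subsets by Fos and HSC markers, the retained cells outside the HSC-like clusters and the ranking of ties were chosen after seeing the data.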
